A study of Mus musculus with 7 samples.

Results

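The genes described are the ligands and receptors of the classical axon guidance families: Eph receptors and their ephrin ligands, semaphorins of classes 3 to 7, plexins, the neuropilins *Nrp1* and *Nrp2*, *Slit1* to *Slit3* with *Robo1* to *Robo3*, *Ntn1* and *Ntn4*, and *Dcc* with the *Unc5* genes. Members were taken by gene symbol, from families picked with earlier results of these data known, and 66 of the 48440 genes in the count table met the rule, 33 ligands and 33 receptors. RNA was measured in bulk in whole retinas of E16 mouse embryos, in 7 libraries made from 36 pooled retinas. One library came from *Chx10Cre* retinas with both *Ptbp1* copies intact (WT), 3 from *Chx10-Cre;Ptbp1lox/WT* retinas (Het) and 3 from *Chx10-Cre;Ptbp1lox/lox* retinas (KO). All groups therefore carry the *Chx10-Cre* transgene, which is active in retinal progenitors and their progeny, so blood vessels, blood cells and other cells of non-retinal origin keep their *Ptbp1*. Each library is a pool of 4 to 6 retinas. Sources used here do not say whether the pools of a genotype came from separate litters, so the p-values measure the spread between these pools. The comparison asks which guidance genes differ in level when both copies of *Ptbp1*, a repressor of neuronal splicing, are deleted rather than 1.

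Guidance ligands are secreted or membrane-bound proteins that attract or repel the tips of growing axons, which carry the matching receptors. Ephrins bind Eph receptors on touching cells, semaphorins bind plexins with or without neuropilins, Slits bind Robos and repel, and netrins attract through DCC or repel through UNC5 proteins. In the embryonic retina these families steer ganglion cell axons to the optic disc, through the optic chiasm and to ordered places in the brain, and several also place blood vessels and the processes of amacrine and horizontal cells. Many are made by progenitors as well as by neurons.

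Gene totals ran from 120593979 to 171117305 counts per library, and the 66 members took 0.432% to 0.459% of them. *Ptbp1* was at 381 CPM (counts scaled to the size of the library, after TMM normalization) in WT, at 210.3, 219 and 234 CPM in the Het libraries and at 27.9, 6.04 and 46.9 CPM in the KO libraries. The target thus followed the labels, with the highest remainder in KO3. Retinal identity was plain in every library, since the summed level of 16 progenitor markers lay between 8583 and 9066 CPM. The libraries were not alike in cells from outside the neural retina. Markers of periocular mesenchyme summed to 492 CPM in Het1 and to 30.0 to 76.9 CPM in the other libraries, and 13 of these 14 genes were highest in Het1. Skeletal muscle and pigment cell markers also peaked there. Erythroid markers summed to 37.1 and 24.5 CPM in KO1 and KO2 and to 189 to 531 CPM in the other libraries, and all 9 were lower in both KO1 and KO2 than in KO3. Microglia markers separated by genotype, summing to 51.3 to 72.9 CPM in Het and 73.9 to 100.6 CPM in KO. Of these 10 genes, 2 were higher by edgeR and 9 by DESeq2. Over all genes, edgeR passed 4.01% as higher and DESeq2 passed 11.5% in either direction, by the limits given below. Members that move with the libraries that stand apart are described together below.

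Nearly all guidance families were well represented in the E16 retina. In all 7 libraries, 49 members exceeded 10 CPM, 11 exceeded 100 CPM, and only *Plxnb3* stayed under 1 CPM. Levels of different genes can be compared only per length, so CPM was divided by the exon length in kilobases. On that scale *Plxnb2*, a receptor for class 4 semaphorins, had the highest mean over the 7 libraries (49.2 CPM per kb), followed by *Efnb2* (34.4 CPM per kb), a membrane-bound ephrin of dorsal retina, and *Ephb2* (32.6 CPM per kb), a receptor of ventral ganglion cell axons. *Efna2* led the ephrin A ligands at 28.2 CPM per kb and *Sema4d*, a ligand of plexin B receptors, led the semaphorins at 24.5 CPM per kb. *Robo2*, the main Slit receptor of ganglion cell axons, stood at 19.5 CPM per kb, *Epha5* at 12.7 CPM per kb and *Slit1* at 8.05 CPM per kb. *Nrp1*, *Unc5a* and *Ntn4* led the 3 remaining families, at 5.19, 5.14 and 4.70 CPM per kb. *Ntn1*, the ligand that guides ganglion cell axons into the optic nerve from the disc, averaged only 0.959 CPM per kb in these whole-retina pools.

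**Figure D1:**
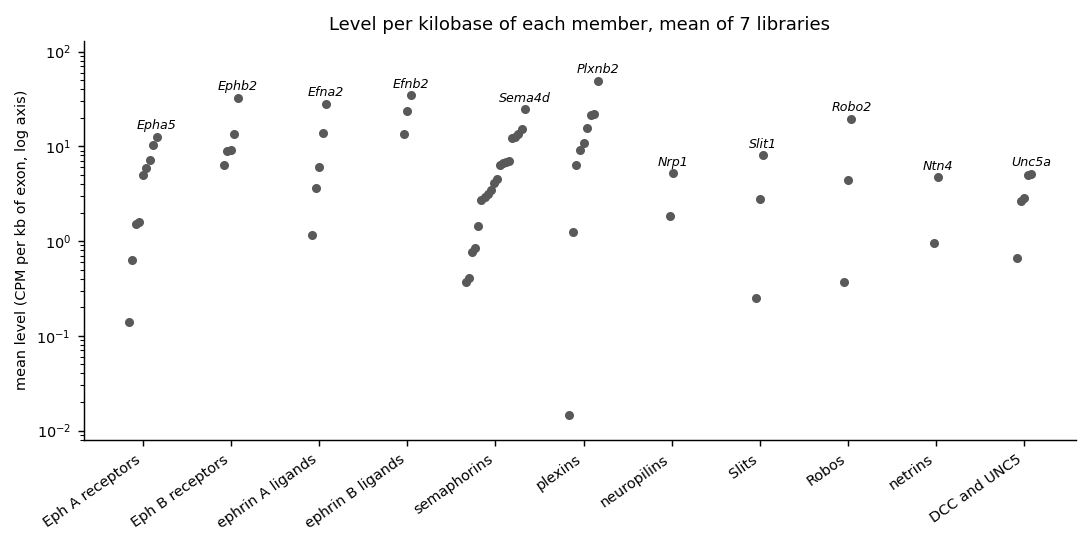
Mean level over the 7 libraries of each of the 66 members on a log axis (CPM per kilobase of exon), 1 point per gene, by family, with the highest gene of each family named. Most members lie between 1 and 50 CPM per kb and *Plxnb3* is lowest at 0.0145 CPM per kb.

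All 66 members passed the expression filter and were compared between KO and Het with edgeR's quasi-likelihood test, fitted on 20019 genes with Benjamini-Hochberg adjustment over all of them. A gene passed where the adjusted p was below 0.05 and the absolute log2 fold change above 0.263, a fold of 1.2 in either direction. By this rule 7 members changed (10.6%, against 7.22% of all genes tested). *Plxna2*, *Plxna4* and *Epha10* rose, which is 4.55% of members against 4.01% of all genes, and *Epha8*, *Plxnd1*, *Efnb2* and *Sema3f* fell, which is 6.06% against 3.21%. Of the 7, 5 are receptors. In bulk RNA, fewer cells of a type and less RNA per cell cannot be told apart. A further 6 members had an adjusted p below 0.05 with a change under the fold limit, so that 13 (19.7%, against 11.1% of all genes) met the p alone. Het and KO libraries did not overlap in 34 members (51.5%, against 36.3% of all genes). The median log2 fold change of the members was -0.06, beside -0.0047 for all genes tested. On the negative side were 41 of 66 members and on the positive side 25, where 49% of all genes tested lay. Of the 66 members, 20 lay within 0.1 of zero on the log2 scale.

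**Figure D2:**
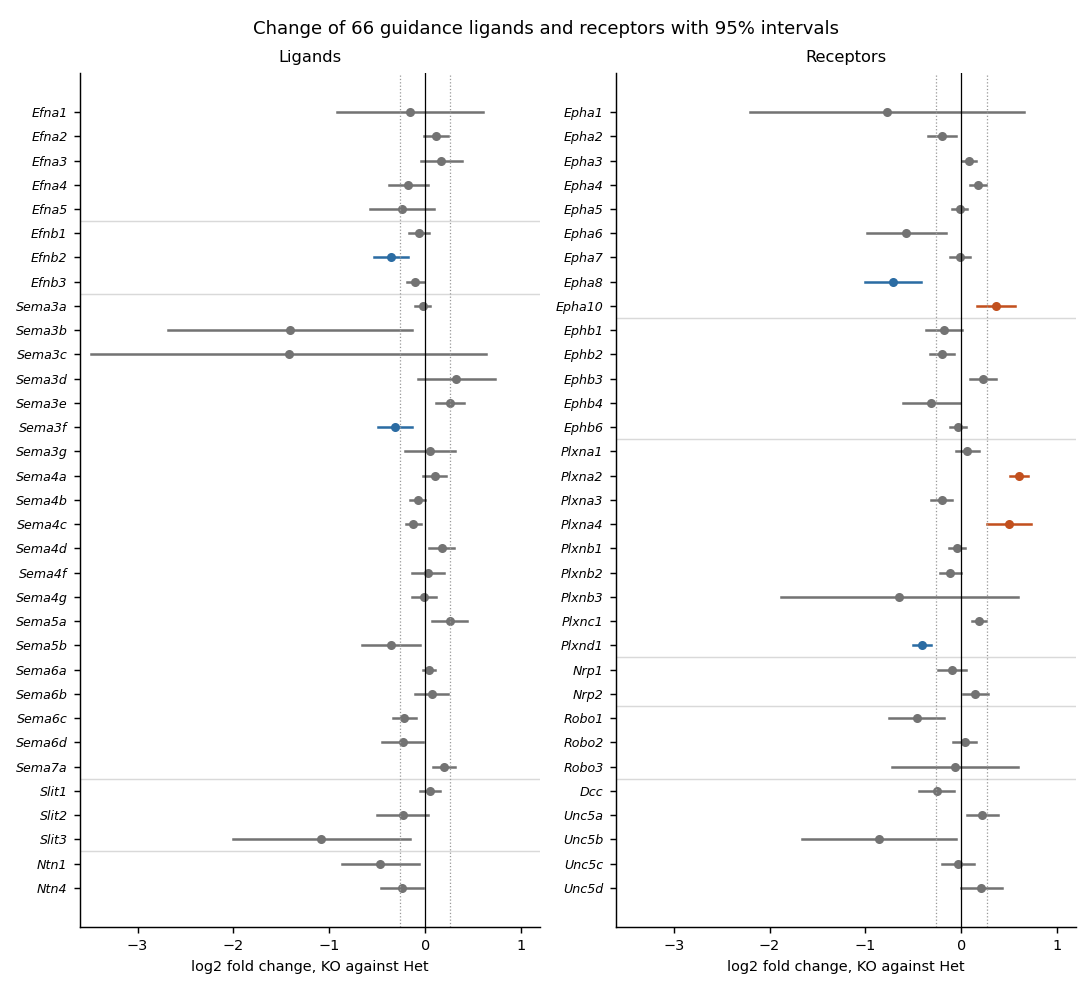
Log2 fold change of KO against Het (x axis) for the 33 ligands (left) and 33 receptors (right), with 95% intervals from the edgeR fit. Orange genes rose and blue genes fell, grey genes did not pass, and dotted lines mark the fold limit of 1.2. *Plxna2* and *Plxnd1* have short intervals far from zero, while *Sema3b*, *Sema3c*, *Slit3*, *Epha1* and *Plxnb3* have long ones.

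Of 9 plexins, 3 changed, and 2 of these kept their call whichever library was left out. *Plxna2* (chr1:194618218-194816869, plus strand, GRCm38) encodes a receptor for the transmembrane ligand SEMA6A and, with neuropilins, for class 3 semaphorins. It was at 93.3, 89.7 and 86.5 CPM in Het1 to Het3 and at 136.7, 132.0 and 139.8 CPM in KO1 to KO3. The groups were far apart compared with their spread, and KO reached 152% of Het. The log2 fold change was 0.60 ± 0.04 (SE, n = 3 and 3 libraries), with an edgeR adjusted p of 0.00161. *Plxna4* (chr6:32144268-32588192, minus strand), a related receptor for SEMA6A and class 3 semaphorins, was at 17.3, 14.3 and 13.5 CPM in Het and 21.8, 21.8 and 20.1 CPM in KO. Every KO library exceeded every Het library, by 0.50 ± 0.10 on the log2 scale (SE, edgeR adjusted p = 0.0267). *Plxnd1* (chr6:115954811-115995005, minus strand), the direct receptor of SEMA3E in vessels and neurons, moved the other way. It was at 86.6, 86.8 and 93.1 CPM in Het and at 68.8, 65.4 and 66.1 CPM in KO. KO stood at 75.2% of Het, with a log2 fold change of -0.41 ± 0.04 (SE, edgeR adjusted p = 0.00480).

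*Plxna2* and *Plxnd1* also passed in every fit that left out 1 library, with adjusted p from 0.00308 to 0.0171 and from 0.00970 to 0.0306. *Plxna4* did not pass without Het2 (adjusted p = 0.107), without Het3 (0.0816), without KO1 (0.0606) or without KO2 (0.0951), while its log2 fold change stayed between 0.42 and 0.61. Of the other plexins, *Plxnc1*, the SEMA7A receptor, was at 120.1, 127 and 126 CPM in Het and 140.1, 142 and 141 CPM in KO. Its log2 fold change of 0.18 had an edgeR adjusted p of 0.0186 but lay under the fold limit. *Plxna3* was the reverse case, at -0.20 with an edgeR adjusted p of 0.0381. *Plxna1*, which is abundant in ganglion cells, was at 188.9 ± 5.36 CPM in Het and 197.4 ± 12.4 CPM in KO (SD, n = 3), and the 95% interval of its log2 fold change was -0.06 to 0.18. Within the A class, 2 of 4 plexins rose while *Plxna1* and *Plxna3* did not pass.

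The proximal promoters of the genes whose calls held in every such fit, and of *Efnb2*, the most abundant member that passed, are shown to give the sequence around the start sites of genes that moved in opposite directions. Each runs from 250 bases before to 50 bases after the start in RefSeq (GRCm38.p6), read 5′ to 3′ on the strand of the gene. Capitals mark GC boxes, GGGCGG on either strand, and E-boxes, CANNTG on either strand.
Plxna2: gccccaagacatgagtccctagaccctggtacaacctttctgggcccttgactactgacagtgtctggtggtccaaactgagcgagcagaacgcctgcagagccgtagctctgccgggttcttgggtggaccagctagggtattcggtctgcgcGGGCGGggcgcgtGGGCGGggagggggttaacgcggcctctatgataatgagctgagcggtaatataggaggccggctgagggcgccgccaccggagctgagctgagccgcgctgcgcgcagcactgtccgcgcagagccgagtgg
Plxnd1: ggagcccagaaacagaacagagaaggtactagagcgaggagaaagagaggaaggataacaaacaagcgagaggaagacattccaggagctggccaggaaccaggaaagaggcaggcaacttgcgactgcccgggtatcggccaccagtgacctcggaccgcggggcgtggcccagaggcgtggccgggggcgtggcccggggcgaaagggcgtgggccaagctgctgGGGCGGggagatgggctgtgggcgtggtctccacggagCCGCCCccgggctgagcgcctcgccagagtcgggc
Efnb2: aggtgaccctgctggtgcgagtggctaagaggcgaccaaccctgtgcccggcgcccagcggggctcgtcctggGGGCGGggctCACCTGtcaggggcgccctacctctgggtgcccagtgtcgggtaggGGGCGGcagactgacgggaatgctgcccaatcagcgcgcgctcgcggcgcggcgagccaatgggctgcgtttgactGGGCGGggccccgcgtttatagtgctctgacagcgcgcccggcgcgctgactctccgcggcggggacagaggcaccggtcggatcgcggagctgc
These windows lie at chr1:194619579-194619878 on the plus strand, chr6:115994956-115995255 on the minus strand and chr8:8661193-8661492 on the minus strand. The RefSeq start of *Plxna2* lies inside the gene bounds given above, which are GENCODE's. The *Plxna2* and *Plxnd1* windows hold 2 GC boxes each and no E-box, and the *Efnb2* window holds 3 GC boxes and 1 E-box. The sequence TAATCC, the core bound by OTX2 and CRX, is in none of the 3 on either strand. Of all 32851 promoter windows in the table, 35.7% hold a GC box, 72.3% an E-box and 7.06% TAATCC. Among 72 windows of the 56 members listed there, the shares were 72.2%, 50% and 1.39%. *Plxna4* and *Sema3f* were not among them. Such matches describe the letters only.

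Among the semaphorins, 1 of 20 changed, with 10 members on each side of zero. *Sema3f* (chr9:107681500-107710475, minus strand), a secreted repellent that acts through NRP2, was at 77.0, 73.3 and 81.6 CPM in Het and at 56.7, 60.7 and 68.7 CPM in KO. KO was at 80.2% of Het, and the highest KO library, KO3, lay below the lowest Het library. The log2 fold change was -0.32 ± 0.08 (SE, edgeR adjusted p = 0.0440), and the gene passed only when KO3 was the library left out: the adjusted p was 0.0838, 0.0874 and 0.136 without Het1, Het2 and Het3, and 0.0759 and 0.124 without KO1 and KO2. *Nrp2*, its receptor subunit, was at 21.1 ± 1.01 CPM in Het and 23.3 ± 0.957 CPM in KO (SD, n = 3), a log2 fold change of 0.15 that did not pass (edgeR adjusted p = 0.130). *Nrp1*, the subunit for SEMA3A, was estimated at -0.10 on the log2 scale, its 95% interval running from -0.25 to 0.05.

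*Sema3e*, the ligand of PLXND1, lay just under the fold limit. It was at 25.7, 24.3 and 25.4 CPM in Het and at 30.3, 32.3 and 27.7 CPM in KO, and the groups did not overlap. Its log2 fold change was 0.26 ± 0.06 (SE) with an edgeR adjusted p of 0.0437. It passed both limits without KO3 (0.32, adjusted p = 0.0197), with upper-quartile normalization (adjusted p = 0.0448) and with 10 counts required in every library (0.0352). The edgeR adjusted p was 0.0729, 0.144, 0.122, 0.0865 and 0.123 without Het1, Het2, Het3, KO1 and KO2. With the replicate number as a block it was 0.0775. The estimates of the ligand and its receptor thus had opposite signs, and in the fit reported only the receptor passed both limits. *Sema6a*, a ligand of PLXNA2 and PLXNA4, was at 133.0, 133.4 and 130.1 CPM in Het and 133.7, 136.4 and 136.2 CPM in KO. The 95% interval of its log2 fold change, -0.03 to 0.10, does not reach the estimates of these receptors.

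*Sema5a* and *Sema5b*, transmembrane repellents that confine neurites of inner retinal cells and keep ganglion cell axons in the optic nerve, had estimates of opposite sign. *Sema5a* was at 132, 115 and 113 CPM in Het and 155, 138 and 136 CPM in KO (log2 fold change 0.26, edgeR adjusted p = 0.0769). *Sema5b* was at 29.2, 35.6 and 31.9 CPM in Het and 29.6, 21.4 and 24.4 CPM in KO (-0.36, edgeR adjusted p = 0.118). Neither passed, although *Sema5a* did without Het1 (0.33, adjusted p = 0.0388) and *Sema5b* without KO1 (-0.49, adjusted p = 0.0419). *Sema6d*, which acts at the optic chiasm, was at 30.5 ± 1.88 CPM in Het and 25.9 ± 2.99 CPM in KO (SD, n = 3) and did not pass (edgeR adjusted p = 0.140). *Sema4d*, the highest semaphorin per kb, was at 180 ± 6.84 CPM in Het and 202 ± 13.4 CPM in KO (edgeR adjusted p = 0.0953). *Sema3a*, the classical growth cone repellent, was nearly level, at 44.0 ± 0.397 CPM in Het and 43.2 ± 1.39 CPM in KO, with a 95% interval of -0.10 to 0.05 on the log2 scale. *Sema3d* was low throughout, between 2.51 and 4.03 CPM, and its interval of -0.08 to 0.73 left its direction undetermined. *Sema7a*, at 0.20, and *Sema6c*, at -0.22, met the p alone, and *Sema6c* met both limits without KO2 (-0.27, adjusted p = 0.0277).

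**Figure D3:**
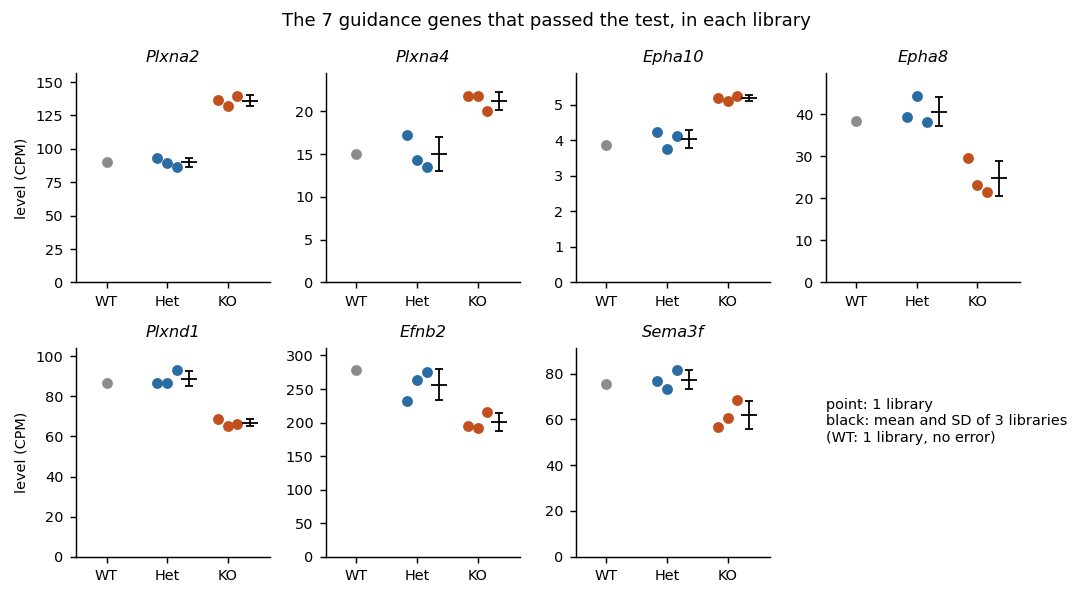
Level in CPM of the 7 members that passed the test, 1 point per library, with the mean and SD of the 3 Het and the 3 KO libraries in black and axes starting at 0. Het and KO libraries are apart in all 7 genes, and the single WT library lies in or beyond the Het range on the side away from KO in each.

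The Eph family gave 2 changed A receptors and 1 changed B ligand out of 22 genes. *Epha8* (chr4:136929419-136956816, minus strand), a receptor for ephrin A ligands known from the superior colliculus, was at 39.4, 44.4 and 38.1 CPM in Het and at 29.5, 23.2 and 21.6 CPM in KO. Its level in KO was 60.9% of Het, the largest fall among the members that passed, with a log2 fold change of -0.71 ± 0.12 (SE, edgeR adjusted p = 0.0189). The call was lost without Het2 (adjusted p = 0.0796), without Het3 (0.0567) and without KO2 (0.0770). *Epha10* (chr4:124880899-124917800, plus strand), a member that lacks an active kinase, was at 4.22, 3.76 and 4.13 CPM in Het and 5.20, 5.09 and 5.25 CPM in KO. The rise of 0.36 ± 0.08 on the log2 scale (SE) had an edgeR adjusted p of 0.0413, close to the limit. It did not pass in any of the 6 fits with 1 library left out, where the adjusted p was 0.0684 (without Het1), 0.129 (Het2), 0.117 (Het3), 0.0769 (KO1), 0.109 (KO2) and 0.0711 (KO3), while the estimate stayed between 0.31 and 0.39. Nor did it pass when no expression filter was applied (adjusted p = 0.0702). It is also the member with the fewest reads among the 7, down to 448 counts in a library.

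Graded ephrin A signalling maps the nasotemporal axis of the retina onto the brain, and its best known retinal receptors did not pass. *Epha5*, expressed most in temporal ganglion cells, was at 207, 219 and 214 CPM in Het and at 209, 209.9 and 215 CPM in KO. These groups overlapped throughout, and the 95% interval of the log2 fold change was -0.09 to 0.06. *Epha6*, a related temporal receptor, was at 9.03, 9.84 and 9.04 CPM in Het and at 4.58, 7.34 and 6.82 CPM in KO. Its KO libraries were all lower than Het and spread widely, and the log2 fold change of -0.57 ± 0.17 (SE) did not pass by edgeR (adjusted p = 0.0795), except without KO1, the lowest library (-0.39, adjusted p = 0.0410). *Epha4* met the p alone, with a log2 fold change of 0.17 (edgeR adjusted p = 0.0291). The 5 ephrin A genes all stayed inside the test limits. *Efna2* was at 57.7 ± 2.69 CPM in Het and 62.4 ± 3.45 CPM in KO (SD, n = 3), and *Efna5* at 59.8 ± 4.21 and 50.5 ± 10.04 CPM.

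Ephrin B and EphB proteins order the dorsoventral axis, and *Ephb1* turns ventrotemporal axons back at the chiasm. *Efnb2* (chr8:8617434-8661242, minus strand), the ephrin B of dorsal retina, was at 232, 263 and 275 CPM in Het and at 194, 192 and 216 CPM in KO. KO was at 78.2% of Het, and the log2 fold change was -0.36 ± 0.08 (SE, edgeR adjusted p = 0.0324). The call was lost without Het2 (adjusted p = 0.108), Het3 (0.104), KO1 (0.0741) or KO2 (0.103). *Tbx5* and *Aldh1a1*, other genes of dorsal retina picked after their values were seen, did not pass. *Tbx5*, a transcription factor of dorsal retina, was at 12.1, 14.6 and 14.6 CPM in Het and 9.27, 11.0 and 14.04 CPM in KO. *Aldh1a1*, the dorsal retinoic acid enzyme, was at 156, 228 and 335 CPM in Het and 68.8, 92.4 and 283 CPM in KO, so that Het1 had the lowest Het value of *Efnb2*, *Tbx5* and *Aldh1a1*, and KO3 the highest KO value of each. Of 19 transcription factors and patterning genes of the retinal axes and of ganglion cell crossing, 9 were lower in both KO1 and KO2 than in KO3. How many of all genes have this order of libraries was not counted, so it cannot be called particular to dorsal genes. Whether the share of dorsal tissue in a pool has a part in the *Efnb2* difference was not tested.

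*Efnb1* was level by comparison, at 47.4 ± 1.76 CPM in Het and 45.4 ± 2.12 CPM in KO (SD, n = 3), with a 95% interval of -0.17 to 0.04 on the log2 scale. The ventral receptors *Ephb2* and *Ephb3* both missed the adjusted p narrowly and lay on opposite sides. *Ephb2* was at 430, 456 and 444 CPM in Het and 405, 393 and 358 CPM in KO (log2 fold change -0.20, edgeR adjusted p = 0.0554). *Ephb3* was at 58.7, 53.0 and 56.3 CPM in Het and 69.5, 61.4 and 65.3 CPM in KO (0.22, edgeR adjusted p = 0.0526). *Ephb1* was at 100.5, 97.7 and 102 CPM in Het and at 98.9, 86.9 and 79.1 CPM in KO. Its estimate was -0.18 with an interval of -0.36 to 0.01, and it passed without KO1 (-0.27, adjusted p = 0.0314).

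No Slit, Robo or netrin gene passed. *Robo1* was the closest, at 91.0, 88.7 and 71.8 CPM in Het and at 53.1, 69.0 and 60.2 CPM in KO, with no overlap and a log2 fold change of -0.46 ± 0.12 (SE, edgeR adjusted p = 0.0554). It passed when no expression filter was applied (adjusted p = 0.0478) and when 10 counts were required in every library (0.0473). *Robo2*, by contrast, was at 336, 330 and 318 CPM in Het and 325, 359 and 324 CPM in KO, with a 95% interval of -0.08 to 0.15 on the log2 scale. The *Robo1* estimate lies outside this interval. *Slit1* was level (47.3 ± 1.47 CPM in Het and 49.0 ± 2.21 CPM in KO, SD, n = 3, interval -0.05 to 0.15). *Slit2*, the main repellent around the optic chiasm, was at 68.0, 77.5 and 82.6 CPM in Het and 57.7, 61.0 and 74.9 CPM in KO (edgeR adjusted p = 0.212). *Ntn1* was at 8.50, 6.74 and 6.21 CPM in Het and 4.81, 6.23 and 4.47 CPM in KO, a log2 fold change of -0.47 that did not pass (edgeR adjusted p = 0.122). *Dcc*, its attractive receptor, was at 65.8, 71.0 and 69.4 CPM in Het and at 50.5, 60.9 and 60.9 CPM in KO. The groups did not overlap, but the log2 fold change of -0.26 ± 0.08 (SE) had an edgeR adjusted p of 0.0773. Netrin and its receptor thus both had lower estimates in KO without passing. *Unc5c*, a receptor for repulsion, was level (interval -0.21 to 0.13). *Unc5a*, the highest UNC5 gene per kb, was at 20.2 ± 0.610 CPM in Het and 23.4 ± 1.91 CPM in KO (edgeR adjusted p = 0.0858), and passed without KO3 (0.28, adjusted p = 0.0272). *Ntn4*, a netrin of basement membranes, was at 18.7 ± 2.23 CPM in Het and 15.8 ± 0.744 CPM in KO (edgeR adjusted p = 0.136).

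By DESeq2's Wald test at the same limits 13 members passed (19.7%, against 11.5% of the 17979 genes with an adjusted p), 3 higher and 10 lower. They include all 7 named above. The 6 added were all lower: *Robo1* (adjusted p = 0.00012), *Epha6* (0.00266), *Sema5b* (0.0126), *Slit3* (0.0157), *Ntn1* (0.0259) and *Ephb4* (0.0260). Here edgeR gave these 6 adjusted p-values from 0.0554 to 0.152.

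**Figure D4:**
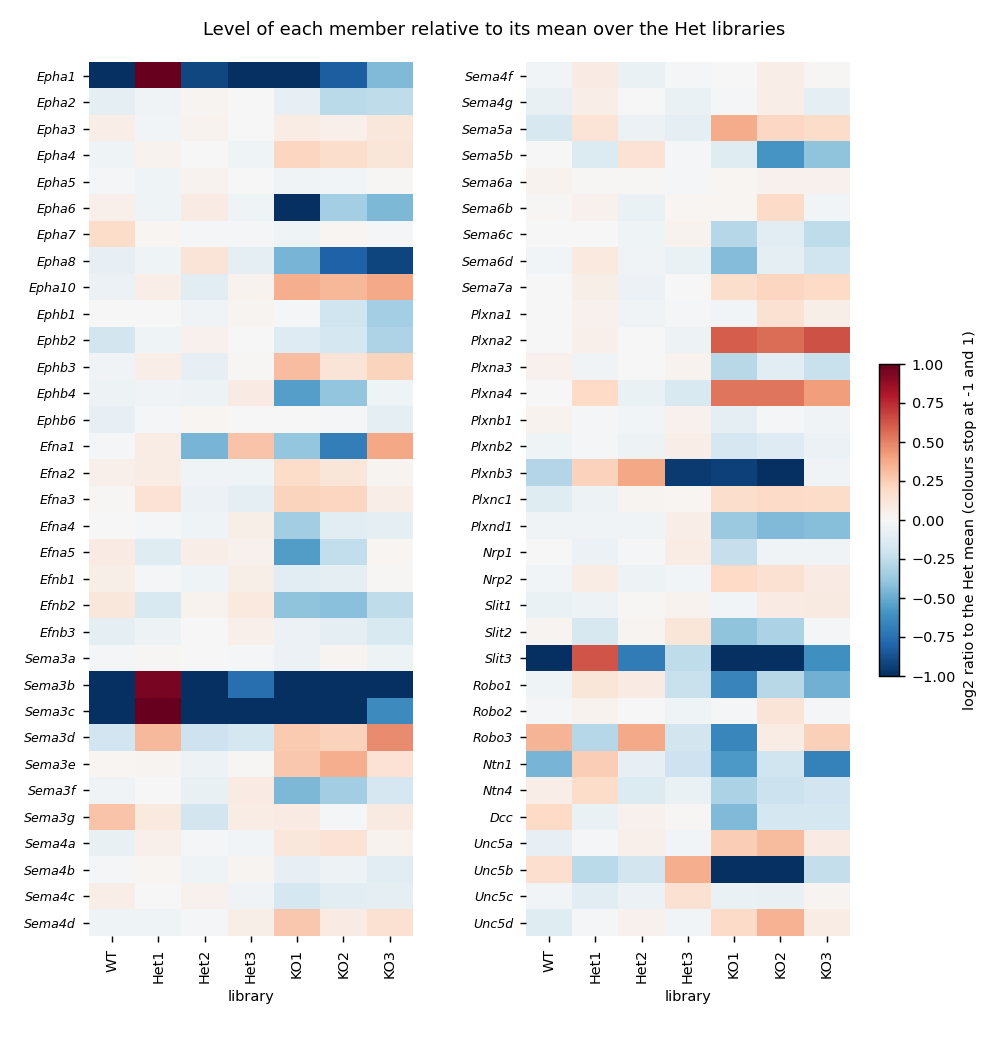
Level of each member in each library as a log2 ratio to the mean of its Het libraries, with red above and blue below and colours ending at -1 and 1. *Plxna2*, *Plxna4* and *Epha10* are red and *Plxnd1*, *Epha8* and *Efnb2* blue in all 3 KO columns, *Sema3b*, *Sema3c*, *Slit3* and *Epha1* are red in Het1 alone, and *Unc5b* is darkest in KO1 and KO2.

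In some members single libraries stood apart within a genotype, and those given here were picked after their values were seen. How many of all genes do the same was not counted, so the counts cannot be called particular to the members. In 4 of them the value in Het1 was over 1.5 times that in any other library: *Sema3c* (10.6 CPM, 3.61 times the next highest), *Sema3b* (11.8 CPM, 3.26 times), *Epha1* (1.47 CPM, 2.75 times) and *Slit3* (3.34 CPM, 1.84 times). Outside Het1 these genes were low, with *Sema3c* between 0.973 and 2.94 CPM and *Sema3b* between 1.99 and 3.63 CPM. Het1 is also the library with the high mesenchyme, muscle and pigment markers, at 492, 432 and 556 CPM against at most 76.9, 22.9 and 70.2 CPM elsewhere. The part of such cells in these values was not tested. The count of members that passed was 6 without Het1, beside 7 with it. Without Het1, *Epha10* and *Sema3f* lost their call (edgeR adjusted p = 0.0684 and 0.0838) and *Sema5a* gained one (0.0388). Over all genes, 1228 passed without Het1, against 1445 with it.

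In other members KO3 differed from KO1 and KO2. In 7 members (*Efna5*, *Efnb1*, *Ephb4*, *Sema3c*, *Slit2*, *Slit3* and *Unc5b*) both of these libraries were below every Het library while KO3 lay within the Het range. For *Slit3* the WT library was below every Het library too, and *Sema3c* was low in every library but Het1. In 3 members (*Efna2*, *Efna3* and *Sema4a*) KO1 and KO2 were both above every Het library with KO3 within the Het range. The share of all genes with either pattern was not counted. *Unc5b*, a receptor of vessels as well as axons, was at 16.5, 17.5 and 25.6 CPM in Het and at 7.11, 8.86 and 16.8 CPM in KO, a log2 fold change of -0.86 ± 0.34 (SE, edgeR adjusted p = 0.148). Without KO3 it passed (-1.31, adjusted p = 0.0236). *Ephb4*, the venous receptor of ephrin B2, was at 31.1, 30.8 and 33.8 CPM in Het and 21.9, 24.3 and 31.0 CPM in KO (-0.31, edgeR adjusted p = 0.152). *Ephb4* also passed without KO3, at -0.47 (adjusted p = 0.0170). *Cdh5*, a defining marker of endothelium, went the same way: 6.80, 3.21 and 9.77 CPM in Het and 0.989, 0.555 and 4.41 CPM in KO. Of 16 endothelial and pericyte markers 14 were lower in both KO1 and KO2 than in KO3. The whole list summed to 426.2 to 463.5 CPM in Het and to 508.5 to 606.8 CPM in KO. Its highest gene, *Kdr*, rose in KO. Without *Kdr* the list summed to 60.5 to 100.8 CPM in Het and 39.9 to 69.9 CPM in KO. Vessel and blood markers were not the only ones lower in both KO1 and KO2 than in KO3. The same held for 13 of 14 lens, 13 of 14 mesenchyme and 9 of 11 pigment markers, but for 8 of 23 muscle and 0 of 10 microglia markers. Lens markers summed to 3.40, 8.69 and 76.6 CPM in KO1 to KO3. How far vessels or other cells from outside the neural retina account for *Unc5b*, *Ephb4* or the others was not tested.

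**Figure D5:**
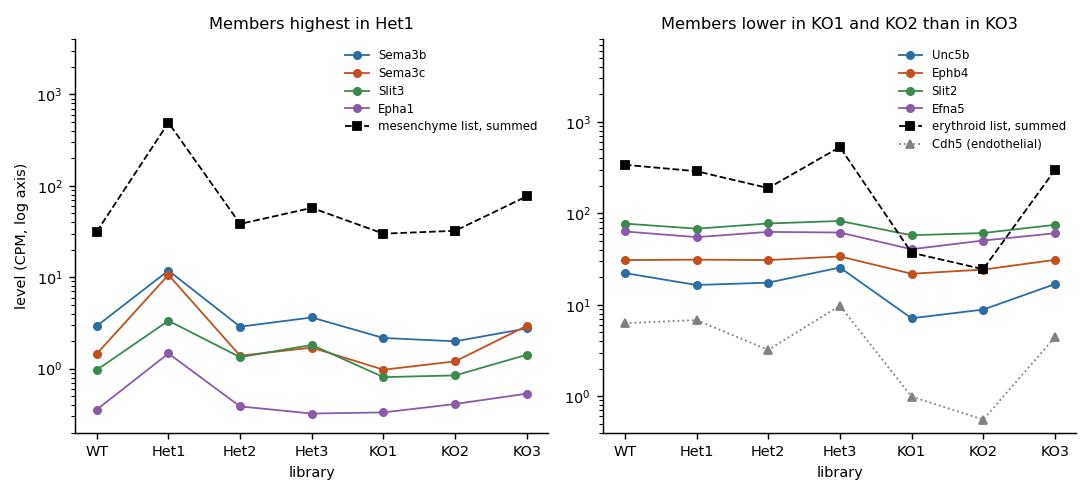
CPM on a log axis in each library (x axis), with lines joining the values of 1 gene or list. Left, 4 members peak in Het1 together with the summed mesenchyme markers (492 CPM); right, *Unc5b* and *Ephb4* are lowest in KO1 and KO2, as are the erythroid markers and *Cdh5*, and the dips of *Slit2* and *Efna5* are shallower.

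Markers of retinal cell types moved between the genotypes too. Of 17 genes listed as ganglion cell markers, 4 fell (*Atoh7*, *Isl1*, *Elavl4* and *Gap43*) and 1 rose (*Thy1*), with 12 estimates negative and 5 positive. Their summed level was 3969 to 4155 CPM in Het and 3310 to 3744 CPM in KO, with none at 0. The list was written by hand, and whether its genes are confined to ganglion cells was not tested. Photoreceptor markers summed to 986 to 1053 CPM in Het and 1192 to 1311 CPM in KO, and 8 of the 15 tested rose. Amacrine and horizontal cell markers summed to 584 to 621 CPM in Het and 713 to 758 CPM in KO, and 3 of 12 rose. Of 16 progenitor markers 2 rose and 2 fell, while their summed level was 8583 to 8867 CPM in Het and 8664 to 8927 CPM in KO. Of all genes tested, 4.01% rose and 3.21% fell by the same limits. The part of these shifts in the changes of *Plxna2*, *Plxna4*, *Epha8* or *Plxnd1* was not tested.

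Beyond the members, 83 co-receptors, cleavage enzymes, adhesion partners and intracellular effectors were tested from lists of 31 and 54 genes. Of these 11 changed (13.3%, against 7.22% of all genes), 7 higher and 4 lower. The 29 co-receptors and partners held 9 of the 11 (31.0% of their number). *Draxin*, a secreted repellent that binds DCC and netrin, had the largest fall among those that passed: it was at 95.1, 126 and 111 CPM in Het and 58.8, 37.9 and 41.7 CPM in KO, 41.8% of Het, with a log2 fold change of -1.26 ± 0.18 (SE, edgeR adjusted p = 0.0120). Without Het2 its adjusted p was 0.0551. *Cntn2*, an axonal adhesion protein of young ganglion cells, was at 422, 463 and 475 CPM in Het and 167, 258 and 204 CPM in KO (-1.11 ± 0.15 SE, edgeR adjusted p = 0.0100). *Rgmb*, a ligand of neogenin, fell by 0.39 on the log2 scale and *Islr2*, an axonal membrane protein, by 0.27. The *Islr2* call (edgeR adjusted p = 0.0427) was lost without Het1 (0.0851), Het2 (0.133), Het3 (0.119), KO1 (0.0806) or KO3 (0.0806). *Rgmb* and *Islr2* fell less than *Cntn2*, whose KO level was 46.2% of Het.

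The other 5 co-receptors and partners that passed rose. *Vegfa*, the vascular growth factor that also binds NRP1, was at 59.0, 55.6 and 52.8 CPM in Het and at 76.0, 78.6 and 79.1 CPM in KO (0.48 ± 0.04 SE, edgeR adjusted p = 0.00443). *Dscam*, which spaces the cell bodies and neurites of amacrine and ganglion cells, had a log2 fold change of 0.41 ± 0.06, *Lrrc4* 0.32 ± 0.05, *Chl1*, an L1-type adhesion protein, 0.29 ± 0.05, and *Ntng2*, a membrane-anchored netrin, 0.28 ± 0.06 (SE), with edgeR adjusted p-values of 0.0137, 0.0170, 0.0191 and 0.0272. Of these calls, that of *Dscam* was lost without Het2 (adjusted p = 0.0691) or KO2 (0.0583). *Lrrc4* did not pass without Het2 (0.0818), Het3 (0.0701) or KO2 (0.0576), nor *Chl1* without Het2 (0.0613), Het3 (0.0583) or KO2 (0.0703). *Ntng2* did not pass without Het2 (0.114), Het3 (0.101), KO1 (0.0508) or KO2 (0.0981). The *Vegfa* call held in all 6 of these fits. Only 2 of 54 effectors changed, *Chn2*, a GTPase-activating protein for Rac (0.33 ± 0.06 SE), and *Ablim3*, an actin-binding protein (0.67 ± 0.14 SE), with edgeR adjusted p-values of 0.0191 and 0.0325. *Chn2* did not pass without Het2 (0.0755), Het3 (0.0713) or KO2 (0.0611), and *Ablim3* not without Het2 (0.120), Het3 (0.112), KO1 (0.0601) or KO2 (0.0981). The medians of the 2 lists were -0.06 and -0.03 on the log2 scale, beside -0.0047 for all genes tested. None of 19 transcription factors and patterning genes of the retinal axes and of ganglion cell crossing passed by edgeR or by DESeq2, with 5 at an unadjusted p below 0.05 in edgeR. The count of co-receptors and effectors was 4 without Het2, 5 without Het3 and 5 without KO2. Over all genes, 386, 496 and 612 passed in these fits, against 1445 with all libraries.

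The single WT library, with no replicate, stood with Het rather than KO for the genes that passed. It was inside the Het range for 6 of the 7, at 90.1 CPM for *Plxna2*, 15.0 CPM for *Plxna4*, 3.88 CPM for *Epha10*, 38.5 CPM for *Epha8*, 86.9 CPM for *Plxnd1* and 75.4 CPM for *Sema3f*. For *Efnb2* it lay above the Het range, at 278 CPM. Over all 66 members WT was within the Het range in 41, above it in 9 and below it in 16, and the median log2 ratio of WT to the Het mean was -0.02.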

How the data were processed

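The deposited table holds whole-number counts of reads per gene, without normalization. The authors aligned stranded mRNA reads to GRCm38 (mm10) by STAR, run from rMATS-turbo, with gene counts from featureCounts. The table has 0 other value columns. Whether the counting used strand is not given in the sources used here. Exons of another gene overlap 16 members, among them 2 that passed, *Epha10* and *Plxna4*, whose overlapping antisense genes hold 18 and 0 counts over the 7 libraries. 

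The test was edgeR's (4.0.16, R 4.3.3): filterByExpr on genotype, TMM, glmQLFit and glmQLFTest without the robust option. All 7 libraries shared one fit by genotype, and the contrast was KO minus Het. The biological coefficient of variation was 21.5%. A standard error is the log2 fold change over the square root of F, and 95% intervals use the t quantile of the fit. The script was tested on simulated counts. A single-gene exact permutation test of 3 against 3 libraries cannot give a p below 0.1. No pair of replicates was a copy. Exon lengths come from a GENCODE annotation of GRCm38, in which all 66 members were found.

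The genes named are every member that passed, the highest member per kb of each family, 26 members with a textbook role in ganglion cell axon guidance, those passed by DESeq2 1.42.0 alone, and listed pathway genes that passed. *Plxnc1*, *Plxna3*, *Epha4*, *Sema7a*, *Sema6c*, *Sema6a*, *Plxnb3*, *Unc5b*, *Sema3b*, *Sema3c*, *Epha1*, *Tbx5*, *Aldh1a1* and the marker genes were named after their values were seen. The members and lists were chosen with earlier results of these data known. Alternatives were DESeq2, other normalizations and filters, the 6 Het and KO libraries alone, a replicate block, each library left out, adjusted p alone and glmTreat.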

Additional observations from a re-analysis of the deposited data

How the results depend on the processing

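The count of members that passed, 7 in the fit reported (3 higher, 4 lower), was 13 with DESeq2 (10 lower), 13 by the adjusted p alone (7 higher), and 1 with glmTreat, a test against the fold limit itself (1 higher, 0 lower, *Plxna2*). With the other normalizations, filters and the 6 Het and KO libraries alone it stayed within 1.5 times of 7. With 1 library left out it ran from 2 to 10, the higher members from 1 to 4 and the lower from 1 to 6. The fits without Het2 and without Het3 gave 2 each, and that without KO2 gave 3. Over all genes, 386, 496 and 612 passed in these fits and 217 with glmTreat, against 1445 in the fit reported. Co-receptors and effectors, 11 in the fit reported, numbered 3 with glmTreat, 21 by the adjusted p alone and 4 to 12 with 1 library left out. Deviations of Het and KO libraries with the same replicate number correlated at -0.12, 0.26 and 0.02 for numbers 1, 2 and 3. Between libraries of different numbers the correlations ran from -0.35 to 0.22. Deviations from a mean of 3 libraries are tied to each other, so these values cannot settle whether the numbers mark pairs. With the replicate number as a block, 7 members passed, 6 of them the same genes, while *Epha10* did not pass (adjusted p = 0.0759), nor did *Islr2* among the co-receptors (0.0565), and 1268 genes passed in all against 1445. Of 624 values of 48 named genes under these alternatives, 3 changed sign, each of a gene at most 0.039 from zero: *Epha5* without Het2 (0.0043, range -0.036 to 0.0043 over the fits with 1 library left out), *Robo2* without KO2 (-0.015, range -0.015 to 0.063) and *Unc5c* without Het3 (0.043, range -0.090 to 0.043). A further 50 lost their call and 17 gained one. The causes were not tested. Depth limits few members, since 2 of 66 had under 100 counts in a library.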
